A study of Mus musculus and Homo sapiens with 14 samples.

Results

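Setdb1, Suv39h1, Ehmt2, Atf7ip, Trim28, Mphosph8, Morc2a, Morc3, Kdm1a and Hells encode chromatin proteins that keep endogenous retroviruses silent. The 10 genes were taken by symbol from the count tables of EL4 tumours and EG7-OVA cells. All 10 were present among the 50559 entries of the EL4 table and the 55969 entries of the EG7 table, and all 10 passed the filter on low counts in both, which left 19993 and 19123 genes to test.

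The study addresses priming with inhibitors of DNA methyltransferases in T-cell and NK/T-cell lymphoma. EL4 is a mouse T-cell lymphoma line, and the libraries labelled P0 and P3 were made from EL4 tumours, both given as wild type; the labels do not say what P0 and P3 stand for, nor the host, its age or any treatment. EG7-OVA is a derivative of EL4 that carries ovalbumin. EG7-OVA cells, also given as wild type, received DMSO as the solvent control, azacytidine (AZA) at 1.5 µM or decitabine (DAC) at 0.2 µM at 0, 24 and 48 h and were collected at 72 h. Each of these 5 groups had 2 libraries, 10 in all. The labels do not say that replicates came from separate cultures or animals, so p-values measure only the spread between these libraries, which may be technical.

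Endogenous retroviruses are remnants of old infections that mammalian cells keep silent through DNA methylation and through methylation of histone H3 on lysine 9. In one route, KRAB zinc finger proteins find the element and recruit the corepressor Trim28, which brings in the methyltransferase Setdb1 with its partner Atf7ip. The HUSH complex, the MORC ATPases and the remodeller Hells act beside it, and Hells is needed for full methylation of repeats. Azacytidine and decitabine are cytosine analogues that trap DNA methyltransferases, and loss of methylation can let such elements be transcribed.

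Total counts ran from 21621580 to 25328708 in the EL4 libraries and from 15690747 to 21048979 in the EG7 libraries. The T-cell gene Cd3e reached 207 CPM, counts scaled to a common library size by TMM, in the EL4 tumours and 226 in EG7-OVA cells. Of 11 T-cell markers, 8 had a read in every EL4 library and all 11 had one in every EG7 library. The DMSO libraries, replicates 2 and 3, differed widely in Trbc1 (0.0503 and 30.1 CPM) and Trbc2 (8.04 and 133). They were close in Cd3e (167 and 150) and Thy1 (465 and 429). The receptor gene Trac was at 0 in the EL4 table, as were Trbc1 and Trbc2, so those markers check nothing there. In EG7-OVA cells the macrophage genes C1qa, C1qb and C1qc were at 0, while Ighm, on the B-cell list, reached 430 CPM.

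On mm10, per GENCODE vM21, the genes lie on 10 different chromosomes, and all are protein coding. The methyltransferase genes are Setdb1 (chr3:95323525-95357202, minus strand), Suv39h1 (chrX:8061171-8074760, minus) and Ehmt2 (chr17:34898469-34914052, plus). The cofactor genes are Atf7ip (chr6:136506167-136610862, plus) and Trim28 (chr7:12999114-13031035, plus). Mphosph8 (chr14:56668248-56697430, plus), Morc2a (chr11:3649191-3690477, plus) and Morc3 (chr16:93832121-93876073, plus) follow, with Kdm1a (chr4:136550540-136602723, minus) and Hells (chr19:38930915-38971051, plus).

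The stretches before the start sites are shown for 4 of the genes called in P3 or with a drug, with CG dinucleotides marked. The drugs act on methylation of these dinucleotides. Trim28 was called in the tumours alone, and Suv39h1 and Hells were lower with the drugs. Mphosph8 and Morc2a, also called in the tumours, are left out. The stretches were not tested for a link between their methylation and the levels. They come from RefSeq on GRCm38.p6, read 5′ to 3′ along the gene's strand, with each CG in capitals, and hold no base of an annotated exon. Atf7ip lies on the plus strand (chr6:136518601-136518801), Suv39h1 on the minus strand (chrX:8074761-8075010), Hells on the plus strand (chr19:38930740-38930914) and Trim28 on the plus strand (chr7:13023902-13024151).
Atf7ip: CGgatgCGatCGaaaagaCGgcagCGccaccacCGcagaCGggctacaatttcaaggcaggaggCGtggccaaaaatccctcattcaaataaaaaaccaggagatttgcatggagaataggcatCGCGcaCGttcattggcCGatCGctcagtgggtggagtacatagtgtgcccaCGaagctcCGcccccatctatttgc
Suv39h1: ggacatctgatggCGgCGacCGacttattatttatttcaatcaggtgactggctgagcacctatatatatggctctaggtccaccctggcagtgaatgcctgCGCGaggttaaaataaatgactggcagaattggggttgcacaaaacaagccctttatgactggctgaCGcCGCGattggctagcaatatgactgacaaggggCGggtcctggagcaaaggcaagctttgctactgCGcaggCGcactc
Hells: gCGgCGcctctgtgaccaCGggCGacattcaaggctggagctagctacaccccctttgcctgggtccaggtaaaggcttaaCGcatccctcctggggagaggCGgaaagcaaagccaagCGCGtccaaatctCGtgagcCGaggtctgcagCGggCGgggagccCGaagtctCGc
Trim28: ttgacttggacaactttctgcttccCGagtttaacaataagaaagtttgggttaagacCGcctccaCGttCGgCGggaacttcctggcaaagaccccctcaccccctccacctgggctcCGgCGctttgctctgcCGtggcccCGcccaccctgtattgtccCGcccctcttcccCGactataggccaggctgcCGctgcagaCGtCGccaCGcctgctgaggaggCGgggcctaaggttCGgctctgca

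These stretches held 15, 11, 14 and 17 CG dinucleotides respectively. Promoter windows of 300 bases, 250 before to 50 after a start, were found for all 10 genes, 13 windows in all. Over all 32851 such windows the median was 7 CG dinucleotides and the upper quartile 20. The Atf7ip window held 29, the Hells window 34, the Trim28 window 23 and the first Suv39h1 window 15. The most CG was in the first Morc2a window, with 46, and the second Morc2a window had 0. No methylation data were analysed here.

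Hells and Suv39h1 were lower in P3 and with both drugs in all libraries, and, after these values were seen, the promoter windows were searched for letters to which E2F factors, which drive genes of DNA replication, are known to bind. The motifs were TTTCCCGC, TTTGGCGC, TTTGCCGC and TTTCGCGC on both strands, and overlaps with other motifs were not removed. A match stood in the second Suv39h1 window (chrX:8074407-8074436, minus strand) and in the Hells window (chr19:38930917-38930946, plus strand), at 64 and 62 bases before the start, and in none of the other 11 windows. Of all promoter windows, 2.26% held one. The motifs are rich in C and G, and these 2 windows held 37 and 34 CG dinucleotides against a median of 7. The share among windows equally rich in CG was not counted, so 2.26% is no measure of how unusual the matches are. The 30 bases around each match follow, with the match in capitals; the one at Suv39h1 is TTTGCCGC on the other strand.
Suv39h1 site: ggaaggccggcGCGGCAAAcgtgggggccg
Hells site: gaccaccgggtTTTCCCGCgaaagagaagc

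The Hells site lies in an annotated GENCODE exon, since GENCODE starts the gene upstream of the RefSeq start. The Suv39h1 site is counted from the second RefSeq start; by GENCODE it lies inside the gene, outside its exons. A match is a run of letters and was not tested for binding. The letters CCAAT, searched on both strands, stood in 7 of the 13 windows and in 37.4% of all windows.

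On a scale of CPM per kilobase of the longest coding transcript (RPKM), the order of the 10 genes was stable at its ends. Trim28 was the highest in all 5 groups, at 143 ± 12 RPKM (SD, n = 2 here and below) in P0, 80.1 ± 7.21 in P3, 171 ± 26.9 with DMSO, 166 ± 24.8 under azacytidine and 132 ± 16.7 under decitabine. Ehmt2 was next in every group, from 35 ± 2.56 RPKM in P3 to 91.7 ± 17.5 under azacytidine. Mphosph8, the HUSH subunit that reads methylated histone H3, was the lowest in every group, from 7.81 ± 0.918 RPKM under azacytidine to 10.5 ± 0.931 with DMSO. The libraries of these 3 genes did not overlap those of their neighbours in the order.

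The middle of the order moved. Atf7ip stood at place 8 in P0 with 16.4 ± 0.5 RPKM and at place 4 in P3 with 23.3 ± 0.128. In EG7-OVA cells it stood at place 7 with DMSO, at 21.5 ± 2.15 RPKM, and its libraries overlapped those of Hells just above it. With azacytidine it was at place 3 with 67.4 ± 1.52 RPKM, and under decitabine also at place 3 with 55.3 ± 0.187, apart from both neighbours. Hells went from place 6 in P0 and DMSO to place 9 in P3 and with both drugs. In several places the order was not resolved: Morc3 and Hells overlapped in P0, and so did Morc3 and Kdm1a, Kdm1a and Suv39h1, and Suv39h1 and Morc2a in P3. With azacytidine Suv39h1, Morc2a and Morc3 overlapped in turn. With decitabine Setdb1 and Suv39h1, Suv39h1 and Morc3, and Morc2a and Hells overlapped. The EL4 and EG7 tables were scaled separately, so levels were not tested across them.

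**Figure D1:**
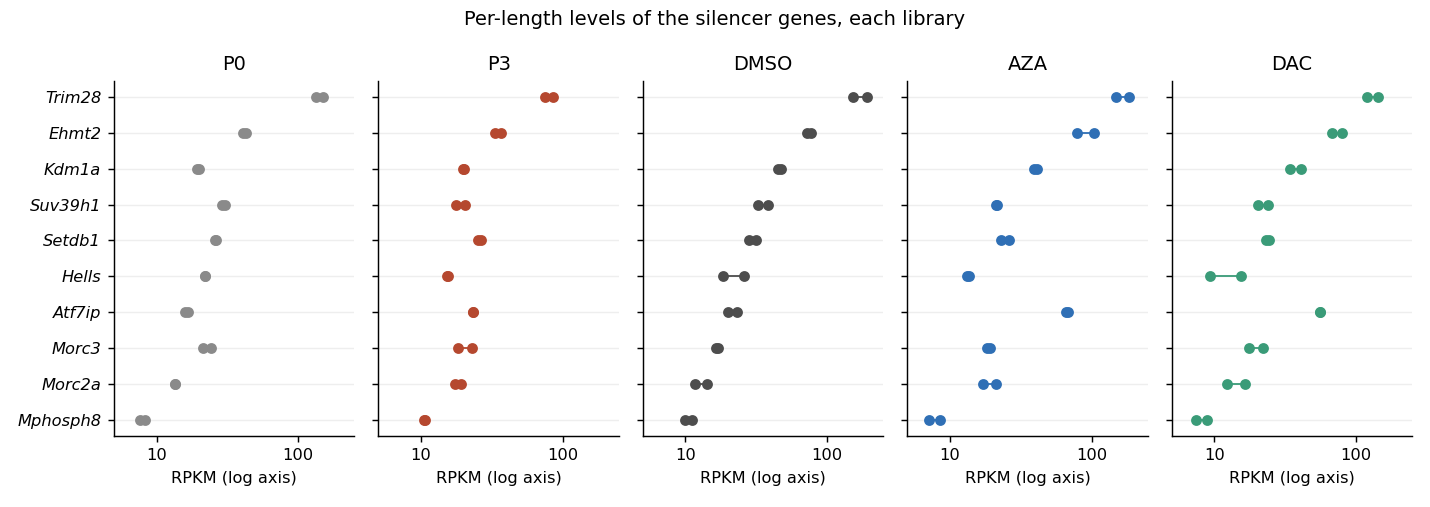
Level of each silencer gene per kilobase (RPKM, log axis) in each library, 1 panel per group, with a line joining the 2 libraries and genes ordered by their mean with DMSO. Trim28 is the highest and Mphosph8 the lowest in every panel, and Atf7ip shifts to the right from 21.5 RPKM with DMSO to 67.4 under azacytidine and 55.3 under decitabine.

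Among the H3K9 methyltransferases, Suv39h1, which places trimethylation on constitutive heterochromatin, fell in P3 against P0 and with each drug against DMSO. It had 94.9 and 90.1 CPM in P0 and 55.1 and 64.3 in P3. In EG7-OVA cells it had 119 and 101 CPM with DMSO, 65.3 and 67 under azacytidine, and 74 and 62.8 under decitabine. The P3 libraries were below both P0 libraries, and all 4 libraries with a drug were below both DMSO libraries. The log2 fold change was -0.63 ± 0.11 (SE) in P3 against P0, with an adjusted p of 0.0101 (edgeR's quasi-likelihood test, Benjamini-Hochberg over all genes tested, as for every adjusted p here unless another tool is named). It was -0.73 ± 0.17 under azacytidine (adjusted p = 0.0135) and -0.68 ± 0.17 under decitabine (adjusted p = 0.0211). As with every tumour gene below, edgeR made no call when either P0 library was left out. Without DMSO replicate 2 the adjusted p with the drugs rose to 0.0776 and 0.132. Without azacytidine replicate 1 or 2 it was 0.102 and 0.0758, and without decitabine replicate 2 it was 0.15. Both drugs were compared with the same DMSO libraries.

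Setdb1, the methyltransferase that Trim28 recruits, had 123 and 121 CPM in P0 and 119 and 124 in P3. It had 148 and 130 CPM with DMSO, 107 and 121 under azacytidine and 112 and 107 under decitabine. The tumour groups overlapped, and all 4 drug libraries lay below DMSO without passing the test. The log2 fold change was -0.01 (95% interval -0.21 to 0.20) in the tumours, -0.28 (-0.64 to 0.07) under azacytidine and -0.34 (-0.69 to 0.02) under decitabine.

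Ehmt2, or G9a, which dimethylates lysine 9, had 172 and 164 CPM in P0 and 134 and 148 in P3. The log2 fold change was -0.26 ± 0.10, with an adjusted p of 0.0811; without P3 replicate 2 the adjusted p was 0.00629. In EG7-OVA cells it had 312 and 290 CPM with DMSO, 419 and 319 under azacytidine and 273 and 321 under decitabine. The decitabine libraries spanned those with DMSO, and neither drug gave a call (log2 fold change 0.30 ± 0.18 and -0.02 ± 0.18).

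Atf7ip, the partner that stabilises Setdb1 and helps it to trimethylate, rose in P3 against P0 and with each drug against DMSO. In EG7-OVA cells it had 161 and 185 CPM with DMSO, 535 and 552 under azacytidine, and 447 and 445 under decitabine. No drug library came near the DMSO range. The log2 fold change was 1.65 ± 0.17 under azacytidine, or 3.14-fold (95% interval of the log2 value 1.28 to 2.02, adjusted p = 1.55e-04). With decitabine it was 1.36 ± 0.16, or 2.57-fold (1.00 to 1.73, adjusted p = 5.18e-04). Of all genes tested, 0.967% had a smaller p under azacytidine and 1.52% under decitabine. In the tumours Atf7ip had 129 and 135 CPM in P0 and 187 and 188 in P3, a log2 fold change of 0.51 ± 0.08 (adjusted p = 0.00887). Setdb1 itself was not called in any of these comparisons.

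In the annotation of Atf7ip a start lies upstream of the RefSeq one shown above. Counts per gene do not show which start was used. Of its exonic bases 83 are shared with Gm44140 on the other strand, and the strand setting of the counting is not given in the sources used here. Within 500 kb, 12 other genes were tested in EG7-OVA cells. Of these 2 rose and 1 fell under azacytidine, and 9 did not pass the test. Over all genes 13.6% rose and 6.70% fell. Under decitabine 1 rose and 0 fell, and 11 did not pass, where 12.4% of all genes rose and 4.30% fell.

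Trim28, the corepressor of the KRAB zinc finger proteins, fell in P3 and was called under neither drug. It had 491 and 436 CPM in P0 and 243 and 276 in P3. The P3 libraries stood well apart from P0, with a log2 fold change of -0.84 ± 0.12 (1.78-fold lower, adjusted p = 0.00621). In EG7-OVA cells it had 618 and 495 CPM with DMSO, 597 and 483 under azacytidine and 389 and 465 under decitabine. With azacytidine the groups overlapped, and the log2 fold change was -0.04 ± 0.19 (adjusted p = 0.907). With decitabine both libraries were below DMSO, and the log2 fold change of -0.38 ± 0.19 did not pass (adjusted p = 0.222). Whether the tumours and the cells differ in their change of Trim28 was not tested.

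Mphosph8 and Morc2a belong to the HUSH pathway, Morc2a as the ATPase that compacts HUSH targets. Mphosph8 had 24.2 and 22.3 CPM in P0 and 30.9 and 31.1 in P3, a rise of 0.41 ± 0.11 on the log2 scale (adjusted p = 0.036). This call was lost with DESeq2 (adjusted p = 0.0513) and with no filter on low counts (adjusted p = 0.0614). In EG7-OVA cells Mphosph8 lay the other way, at 32.8 and 29 CPM with DMSO, 21 and 24.9 under azacytidine and 25.9 and 21.9 under decitabine. Neither drug difference passed, with log2 fold changes of -0.43 ± 0.21 and -0.37 ± 0.21.

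Morc2a had 75.7 and 77.1 CPM in P0 and 109 and 98.1 in P3, a log2 fold change of 0.44 ± 0.09 (adjusted p = 0.018). It had 81 and 66.2 CPM with DMSO, 96.7 and 120 under azacytidine, and 69.3 and 92.4 under decitabine. Both azacytidine libraries were above DMSO, with a log2 fold change of 0.56 ± 0.20 that missed the threshold (adjusted p = 0.0797) and passed with no filter on low counts (adjusted p = 0.0401). The decitabine libraries overlapped DMSO. Of the exonic bases of Morc2a, 483 are shared with genes on the other strand, among them Tug1, whose log2 fold change was 0.26 in the tumours, -0.08 under azacytidine and 0.10 under decitabine and was not called. Bases are likewise shared by Mphosph8 (384), Suv39h1 (767) and Setdb1 (324).

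Morc3, a MORC ATPase that binds methylated lysine 4 of histone H3 and represses retroviral elements, had 89.6 and 101 CPM in P0 and 95.6 and 76.6 in P3. It had 71.6 and 68.1 CPM with DMSO, 76.7 and 80.5 under azacytidine and 92 and 73.3 under decitabine. It was called in no comparison, although all 4 drug libraries lay above DMSO, with log2 fold changes of 0.17 ± 0.17 and 0.24 ± 0.17. Without P3 replicate 1 its tumour difference passed the threshold (adjusted p = 0.0239).

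Kdm1a, or LSD1, removes methyl groups from lysine 4 of histone H3. It had 60.4 and 58.5 CPM in P0 and 60 and 60.6 in P3, and the groups overlapped (log2 fold change 0.02 ± 0.09). With DMSO it had 144 and 137 CPM, against 125 and 118 under azacytidine and 123 and 103 under decitabine. The drug libraries were all below DMSO and neither difference passed, with log2 fold changes of -0.21 ± 0.16 and -0.31 ± 0.16.

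Hells, or LSH, a remodeller that opens heterochromatin to DNA methyltransferases, had 128 and 130 CPM in P0 and 90.2 and 89.3 in P3. The log2 fold change was -0.52 ± 0.08 (adjusted p = 0.00742). In EG7-OVA cells it had 152 and 108 CPM with DMSO, 77.1 and 80.3 under azacytidine, and 90.2 and 54.8 under decitabine. All drug libraries were below DMSO, but the 2 DMSO libraries differed much from each other. The log2 fold change was -0.84 ± 0.25 under decitabine (adjusted p = 0.0425) and -0.72 ± 0.25 under azacytidine (adjusted p = 0.0654). Without DMSO replicate 2 these were -0.58 (adjusted p = 0.23) and -0.48 (adjusted p = 0.302), and without decitabine replicate 2 the former was -0.55 (adjusted p = 0.255). Without decitabine replicate 1 it was -1.29 (adjusted p = 0.0102). Without DMSO replicate 3 the adjusted p was 0.0126 and 0.0196. The decitabine call was also lost without either azacytidine library (adjusted p = 0.0775 and 0.0797), and the azacytidine difference passed with DESeq2 and without either decitabine library.

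**Figure D2:**
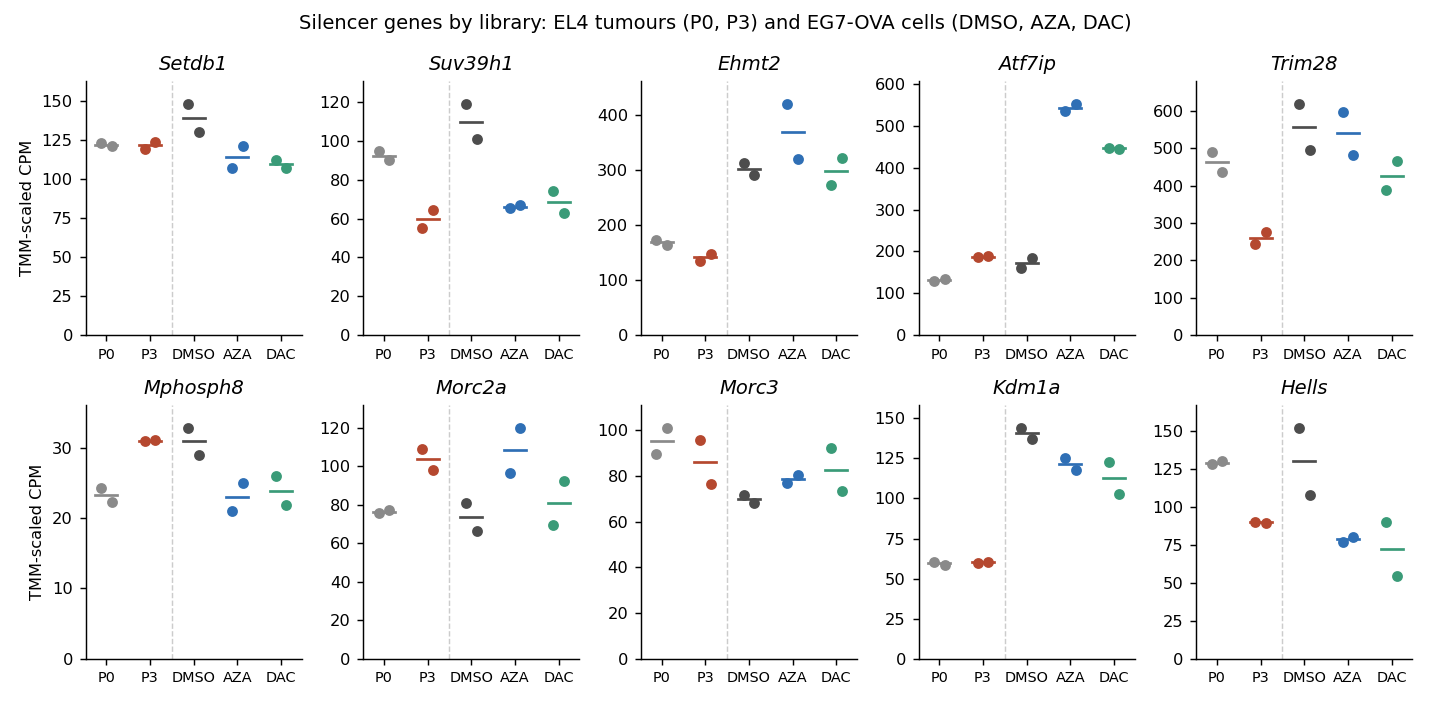
TMM-scaled CPM of the 10 silencer genes, with 1 point per library and a bar at the group mean; EL4 tumour groups stand left of the dashed line and EG7-OVA groups right of it. Atf7ip is at 445 to 552 CPM with the drugs against 161 and 185 with DMSO, and Trim28 is at 243 and 276 CPM in P3 against 491 and 436 in P0.

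Counted together in the tumours, 6 of the 10 genes passed the threshold, against 38.7% of all genes tested. Of these, 3 were higher (18.8% of all genes) and 3 lower (19.9% of all genes). The P0 and P3 libraries did not overlap for 7 of the 10, and for 76.1% of all genes. The median log2 fold change of the 10 genes was -0.08, and their median absolute log2 fold change was 0.43, against -0.00 and 0.54 over all genes tested. Without P0 replicate 1, or without P0 replicate 2, edgeR called 0 of the 10 genes and 0 of all genes. Those fits tested 21156 and 21048 genes, and each left a single P0 library. DESeq2 called 2267 and 2201 of all genes in those settings, with Trim28 as the only one of the 10 in each (adjusted p = 0.00785 and 6.99e-04).

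With azacytidine 2 of the 10 genes passed, against 20.3% of all genes: Atf7ip was higher (13.6% of all genes were) and Suv39h1 lower (6.70% of all genes were). Libraries did not overlap for 9 of the 10, all but Trim28, and for 61.1% of all genes. With decitabine 3 of the 10 passed, against 16.7% of all genes: Atf7ip was higher (12.4% of all genes were), and Suv39h1 and Hells were lower (4.30% of all genes were). Libraries did not overlap for 8 of the 10, and for 58.8% of all genes. The median log2 fold change of the 10 genes was -0.13 under azacytidine and -0.33 under decitabine, against 0.03 and 0.04 over all genes. Their median absolute log2 fold change was 0.36 and 0.35, against 0.46 and 0.42 over all genes.

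**Figure D3:**
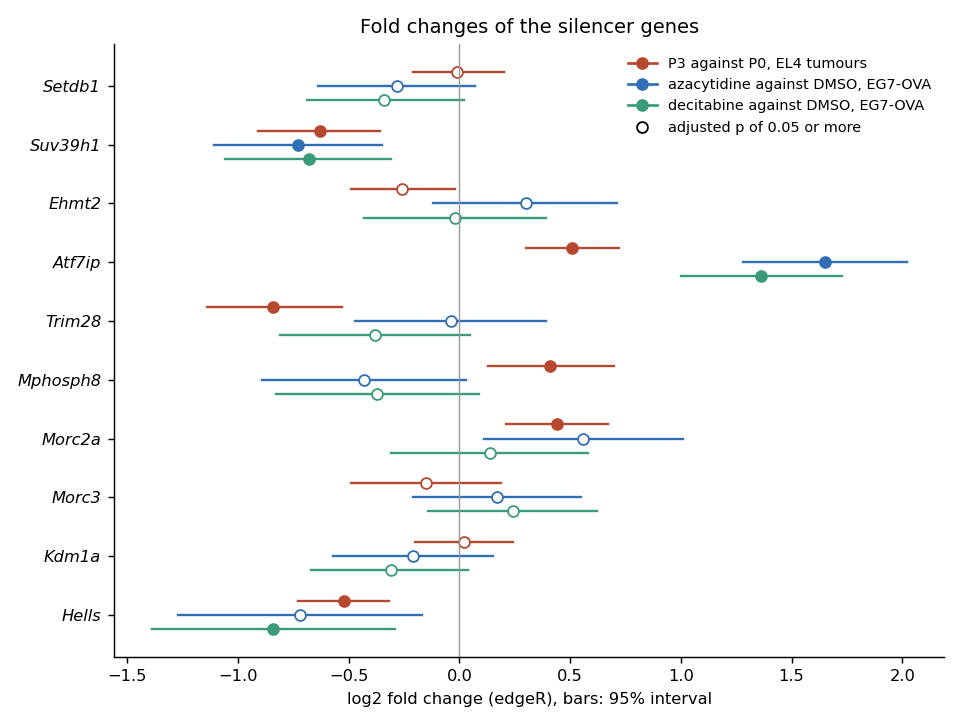
Log2 fold change of each silencer gene with its 95% interval for P3 against P0 and for each drug against DMSO; filled points passed an adjusted p of 0.05 and open points did not. Atf7ip lies to the right in all 3 comparisons (0.51, 1.65 and 1.36) and Suv39h1 to the left (-0.63, -0.73 and -0.68), and Trim28 is called at -0.84 in the tumours and under neither drug.

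Azacytidine, a ribonucleoside, and decitabine, its deoxyribonucleoside counterpart, were given at 1.5 and 0.2 µM, so the values compare these treatments and not the compounds at a matched dose. edgeR called 0 of the 10 genes between them, and 0.00% of all 19123 genes. At an unadjusted p under 0.05 it had 0 of the 10 genes and 1218 of all genes, or 6.37%. DESeq2 called 177 genes and limma-voom 0, and neither called any of the 10. Libraries did not overlap for 3 of the 10 genes, and for 35.0% of all genes. These were Morc2a (log2 fold change of azacytidine over decitabine 0.42, 95% interval -0.03 to 0.87), Trim28 (0.34, -0.09 to 0.77) and Atf7ip (0.29, -0.07 to 0.64), all higher under azacytidine. The intervals leave room for no difference and for one of up to 0.87 on the log2 scale, so like action of the treatments is not shown.

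Other genes of the same silencing machinery were read from a list of 34, of which 31 were tested in each table. In the tumours 3 were higher and 9 lower in P3, so 38.7% of the list passed the test, as did 38.7% of all genes tested (18.8% higher and 19.9% lower). The list median log2 fold change was -0.09. Among the 4 with the smallest p, Daxx, a histone chaperone, fell by 0.87 on the log2 scale (SE 0.11). Cdca7, the partner that brings Hells to chromatin, fell by 0.96 (SE 0.19) and the deacetylase Hdac1 by 0.50 (SE 0.09), while Zfp644, a partner of Ehmt2, rose by 0.65 (SE 0.11). With azacytidine 2 were higher and 4 lower, or 19.4% of the list against 20.3% of all genes (13.6% higher and 6.70% lower). Under decitabine 1 was higher and 6 lower, or 22.6% against 16.7% (12.4% higher and 4.30% lower). The list medians were -0.20 and -0.28.

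Cdca7 had the smallest p of the list with each drug. It averaged 173 ± 20.7 CPM with DMSO, 66.5 ± 6.44 under azacytidine and 59.5 ± 7 under decitabine, log2 fold changes of -1.38 ± 0.18 (adjusted p = 6.47e-04) and -1.54 ± 0.18 (adjusted p = 4.33e-04). Cbx5, the heterochromatin protein HP1 alpha, was lower with both, by log2 fold changes of -0.78 and -0.75, and so was Pcgf6, a subunit of a Polycomb complex, at -0.87 and -0.69. Rif1 was lower with both, at -0.83 and -0.73 (adjusted p = 0.0217 and 0.0431), and Chaf1a, the large subunit of the CAF-1 histone chaperone, at -0.78 under decitabine. The genes called higher were Resf1 with both drugs, at 0.62 and 0.63 (adjusted p = 0.0416 and 0.0423), and Hdac1 under azacytidine, at 0.55 (adjusted p = 0.0405). Between the drugs edgeR called 0 of the 31, with 1 at an unadjusted p under 0.05.

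Of 10 KRAB zinc finger genes on a list of retroviral repressors, 5 were tested in EL4 and 6 in EG7-OVA cells. In the tumours 2 were higher (18.8% of all genes were) and 0 lower: Zfp932 at 1.00 ± 0.11 and Gm15446 at 1.05 ± 0.23. Neither was called with a drug: Zfp932 was at 0.01 under azacytidine and 0.03 under decitabine, and Gm15446 at -0.13 and -0.04. With each drug 3 were higher and 0 lower, against 13.6% of all genes higher under azacytidine and 12.4% under decitabine. They were Zfp809, Gm6871 and Zfp600. The last 2 had no read with DMSO, passed the filter on low counts through the drug groups alone and could therefore only be called higher. Of the 3, only Zfp809 could have been called in either direction. Zfp809, which targets the primer binding site of murine leukaemia virus type elements, averaged 25.8 ± 1.61 CPM with DMSO, 50 ± 2.57 under azacytidine and 52.1 ± 0.208 under decitabine. Its log2 fold change was 0.96 ± 0.17 (adjusted p = 0.00381) and 1.02 ± 0.17 (adjusted p = 0.00336). In the tumours Zfp809 lay lower in P3 without a call, at -0.31 ± 0.11 (adjusted p = 0.0714). Against a floor set at 3 counts over the DMSO group, pooled reads of Gm6871 and Zfp600 were 17.9-fold and 17-fold higher under azacytidine. With decitabine they were 14.8-fold and 11.6-fold higher. These ratios rest on 33 to 43 reads per drug group and have no interval. The 2 libraries were uneven: Gm6871 had 11 and 32 reads under azacytidine and 11 and 31 under decitabine. Zfp600 had 13 and 28, and 6 and 27. This gene family has near-identical copies, so counts of its members are uncertain.

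S phase genes, some of which help to copy DNA or make its building blocks while others regulate the cell cycle, were described beside Hells and Suv39h1. On a list of 16 S phase genes, among them the Mcm2 to Mcm7 helicase subunits and Pcna, 1 was higher and 8 lower in P3, against 18.8% and 19.9% of all genes, and 7 were not called. The higher one was Tyms, thymidylate synthase, at 0.35 (adjusted p = 0.0292), while Ccne1 was at -0.01 and Mcm7 at -0.03. With azacytidine 0 were higher and 6 lower (6.70% of all genes were lower), and 10 were not called. Under decitabine 0 were higher and 11 lower (4.30% of all genes were lower), and 5 were not called. The list medians were -0.47, -0.63 and -0.79 on the log2 scale. The summed level of the list was 3500 and 3300 CPM in P0, 2300 and 2530 in P3, 5200 and 3770 with DMSO, 3050 and 2550 under azacytidine, and 2670 and 2330 under decitabine.

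Within DMSO the sum and Hells were both higher in replicate 2 than in replicate 3. That order was not particular to Hells. All the other silencer genes but Atf7ip had it too, among them Trim28 (618 and 495 CPM) and Morc2a (81 and 66.2). As a share of the DMSO mean, replicate 2 was at 116% for the sum and 117% for Hells, and replicate 3 at 84.1% and 83.1%. With azacytidine Hells was at 59.3% and 61.8% and the sum at 68% and 56.9%. With decitabine Hells was at 69.4% and 42.2% and the sum at 59.5% and 52%. Suv39h1 was at 57.1% to 67.3% with the drugs. In P3 the sum was at 67.6% and 74.4% of P0, Hells at 69.9% and 69.2%, and Suv39h1 at 59.6% and 69.5%. The part of S phase genes in the values of Hells and Suv39h1 was not tested.

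**Figure D4:**
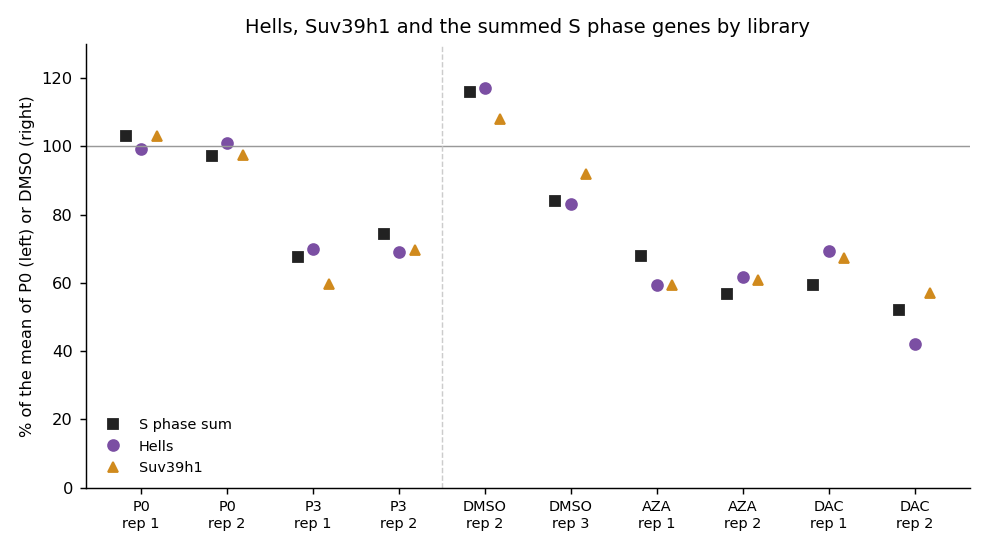
Summed S phase genes, Hells and Suv39h1 in each library, as a percentage of the mean of P0 for the EL4 tumours (left of the dashed line) and of DMSO for EG7-OVA cells (right of it). All 3 quantities lie under 75% in every P3 and drug library, and DMSO replicate 2 is above DMSO replicate 3 in each of them.

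Atf7ip lay above the same reference means, at 309% and 319% of the DMSO mean under azacytidine, at 258% and 257% under decitabine and at 142% of the P0 mean in both P3 libraries.

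The tumour libraries also differed in markers of other cells, beside every difference between P3 and P0 above. The summed level of 10 macrophage markers was 1330 and 1650 CPM in P0 and 350 and 335 in P3. For 8 B-cell markers it was 191 and 367 against 28.4 and 28.6, with Ighm at 0 in all 4 libraries, and for 7 dendritic markers 167 and 189 against 35.1 and 39.7. Fibroblast and endothelial markers, 8 in all, summed to 2750 and 2780 CPM in P0 and 1590 and 974 in P3. Within that list the collagens were lower in P3 (Col1a1 at 782 and 737 CPM in P0 and 233 and 56.2 in P3, Col3a1 at 828 and 937 against 268 and 15.1). Pdgfrb, a receptor of pericytes and fibroblasts, was higher in P3, at 348 and 306 against 703 and 724, and the endothelial Cdh5 overlapped, at 28.9 and 27 against 34.7 and 20.8. The 7 neutrophil markers summed to 0.521 and 1.59 CPM in P0 against 10.2 and 46.7 in P3. The P3 sums came mostly from S100a8 (3.72 and 20), S100a9 (4.11 and 19.4) and Ngp (1.86 and 6.32). Camp, Mpo, Elane and Ly6g overlapped between P0 and P3. T-cell markers summed to 1970 and 1750 CPM in P0 and 1330 and 1450 in P3. Within that list Thy1, Lck, Cd3d, Cd3g, Cd2 and Cd247 were lower in both P3 libraries than in both P0 libraries. Cd5 was higher in P3, at 43.8 and 37.8 against 58.5 and 60.8, and Cd3e overlapped, at 207 and 186 against 173 and 206. In these bulk samples fewer cells of a type and less RNA per cell cannot be told apart. The part of these cells in the values of Trim28, Atf7ip and the other genes was not tested in the tumours. In cultured EG7-OVA cells the neutrophil sum was at most 1.37 CPM and the dendritic sum at most 24.2. The macrophage sum was 7.44 and 9.17 with DMSO, 23.3 and 21 under azacytidine, and 40.1 and 34.9 under decitabine. The B-cell sum was 353 and 434 with DMSO, of which Ighm made up 348 and 404. Fibroblast and endothelial markers summed to 59.8 and 81 with DMSO, 126 and 91.1 under azacytidine, and 137 and 131 under decitabine. Pdgfrb was at 1.21 and 2.29 with DMSO, 35 and 15.1 under azacytidine, and 32.9 and 27.1 under decitabine. Cultured lymphoma cells thus also had reads of these lists.

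Over the 10 libraries, centred within each table, the genes whose pattern was most like that of each silencer were found among 8089 genes with a mean of at least 10 CPM in both tables. These correlations describe libraries that share treatments and scaling. The gene most like Atf7ip was Ggt7 (Pearson r = 0.991), for Suv39h1 it was Tcp1 (r = 0.992), for Hells Slf2 (r = 0.995), for Trim28 Polr2f (r = 0.992) and for Ehmt2 Zfp212 (r = 0.983). For Mphosph8 it was Brd7 (r = 0.978), for Kdm1a Atad5 (r = 0.971), for Setdb1 Lin9 (r = 0.97), for Morc2a Mcm9 (r = 0.969) and for Morc3 Zfp267 (r = 0.891). For 2 of these the likeness came from the EG7 table: over its 6 libraries r was 0.982 for Setdb1 with Lin9 and 0.981 for Kdm1a with Atad5, and over the 4 EL4 libraries 0.129 and -0.736. Among the 10 genes themselves the closest pair was Hells and Suv39h1 (r = 0.915), and the closest to Atf7ip was Morc2a (r = 0.645).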

How the data were processed

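RNA sequencing libraries of EL4 tumours (P0, P3) and EG7-OVA cells (DMSO, azacytidine, decitabine) were analysed, 2 per group, with 15690747 to 25328708 counts each. The deposited EL4 table holds raw counts per gene. The EG7 table deposited by the authors has 145 values in 62 of 55969 entries that are not whole, so it was treated as estimated counts and rounded. The submitters' processing notes name fastp, Trim Galore, STAR and featureCounts and the builds mm10 and GRCh38; no versions or strand setting are given there. NKYS libraries were not used here.

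Each table was fitted on its own in edgeR 4.0.16 (R 4.3.3): filterByExpr, TMM scaling, glmQLFit with 1 mean per group and a two-sided quasi-likelihood test, adjusted by Benjamini-Hochberg over all genes tested, with a threshold of 0.05. Standard errors were derived from the fold change and its F statistic, with 95% intervals. Biological coefficients of variation came to 0.188 (EL4) and 0.244 (EG7). The procedure was tested on simulated data. Other settings tried were DESeq2 1.42.0, limma-voom (limma 3.58.1), size factors by median ratio, no filter, a stricter filter (1 CPM and 100 reads in total), a replicate block, the 4 compared libraries alone, and leaving out each library, where a lone library was assumed to vary like the others. DESeq2 without each library and a block with the DMSO numbers exchanged were added after seeing the data.

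The genes, lists and tests were chosen with earlier results of these data known. All 10 genes are named. From other silencing genes and KRAB zinc fingers, the 4 with the smallest p past the threshold per comparison are named (all if fewer). For likeness it is the gene with the highest r, leaving out predicted models. The other silencing genes called higher with a drug are named as well. Gene positions are from GENCODE vM21 (mm10) and promoters from RefSeq (GRCm38.p6). Titles number the DMSO libraries 2 and 3 where library names say 1 and 2; the titles' numbers are used.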

Additional observations from a re-analysis of the deposited data

How the results depend on the processing

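Atf7ip was called with both drugs in all 20 settings run, with log2 fold changes of 1.53 to 1.72 and 1.24 to 1.43. Counts of called silencer genes depended on single libraries: in the tumours 6 became 0 with edgeR and 1 with DESeq2 without either P0 library (range 0 to 7 over libraries left out), with azacytidine 2 became 4 with no filter (Hells and Morc2a added; range 1 to 3), and with decitabine the range was 1 to 3 around 3. Genes called over all settings ran from 0 to 11286 in the tumours (7736 in the fit reported), 1675 to 5289 with azacytidine (3883), 1520 to 4479 with decitabine (3198), and 0 to 378 between the drugs (0). With no filter 35317 EG7 genes were tested against 19123, and 8237 against 6351 had an unadjusted p under 0.05 with azacytidine. At that cut both fits had 4 silencer genes. With the replicate block 5, 3, 3 and 0 silencer genes were called in the tumours, with azacytidine, with decitabine and between the drugs. The fit reported called 6, 2, 3 and 0. Mphosph8 was lost in the tumours (adjusted p = 0.0878) and Hells gained with azacytidine (adjusted p = 0.0488). At an unadjusted p under 0.05 the block had 6, 4, 3 and 0 silencer genes, and 8803, 6114, 5414 and 1166 of all genes. The fit reported had 7, 4, 3 and 0, and 10157, 6351, 5706 and 1218. The block used the numbers of the library names, by which deviations correlated at -0.0374 in the tumours and in EG7 at -0.257 (DMSO and azacytidine), -0.191 (DMSO and decitabine) and 0.273 (the drugs). With the DMSO numbers exchanged, a block added after seeing the data, the first 2 of these were 0.257 and 0.191, and 4, 3 and 0 silencer genes and 4576, 3922 and 167 genes in all were called with azacytidine, with decitabine and between the drugs. By title only number 2 is shared between DMSO and the drugs, so the pairing is not known.

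Differences near 0 changed sign when a library was left out; their log2 fold changes ran from -0.05 to 0.04 for Setdb1 (0.01 with a stricter filter) and -0.02 to 0.04 for Kdm1a in the tumours, -0.24 to 0.11 for Trim28 with azacytidine, and -0.17 to 0.05 for Ehmt2 and -0.11 to 0.29 for Morc2a with decitabine. Between the drugs they ran from -0.20 to 0.09 for Mphosph8, -0.05 to 0.14 for Setdb1, -0.18 to 0.10 for Suv39h1, -0.24 to 0.12 for Morc3, -0.03 to 0.26 for Kdm1a and -0.21 to 0.54 for Hells. None of these was called in the fit reported. With 2 libraries a group, leaving one out removes residual degrees of freedom as well as data. All 10 genes had at least 21 CPM in every library.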
